A study of Arabidopsis thaliana with 16 samples.

Results

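A set of 391 binding sites of the heat shock transcription factor HSFA1b in Arabidopsis thaliana leaves is described here: peaks that were called after heat stress (HS), had no counterpart under non-stress (NS) conditions and lay at a transcription start site (TSS). They were selected on the deposited peak lists. A peak of the NP:HSFA1b HS list on chromosomes 1 to 5 was a member when its interval overlapped no interval of the NP:HSFA1b NS list by even 1 bp and its summit lay within 250 bp of the nearest TSS of an annotated gene of any biotype. Of 1259 HS peaks, 856 (68.0%) overlapped no NS peak, and the 391 members were 31.1% of all HS peaks. They had 391 different nearest genes, which is 1.03% of the 37899 annotated genes on these chromosomes. The absence of an overlapping NS peak and the nearness to a TSS were therefore given by the choice and are not findings, and the fold enrichments from the same HS list are given as a description without a test.

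Chromatin immunoprecipitation followed by sequencing (ChIP-seq) was carried out on leaves of 5-week-old Col-0 plants in 8 groups of 2 libraries. The groups used here, all of 5-week-old plants, were NP:HSFA1b HS (a C-terminal eYFP fusion of HSFA1b driven by its own promoter, from 1 transgenic line, heated for 30 min at 37 °C in air of 86% relative humidity, anti-GFP), NP:HSFA1b NS (the same line kept at 23 °C and 60% relative humidity), 35S:HSFA1b HS and 35S:HSFA1b NS (an RFP fusion overexpressed from the viral 35S promoter, with the same treatments, anti-RFP), each set against Col-0 control immunoprecipitations with the same antibody, which for the native line came from wild-type plants. The native line was the one with the least detectable fusion protein among those surveyed. Because the libraries of a group were pooled for peak calling, replicate error cannot be given for any value, and intervals cover counting error or sampling of peaks alone. The HS list rested on 2438702 kept treatment fragments and 1139036 control fragments, the NS list on 6783161 and 1686242. The 35S lists were deeper, with 13481546 kept treatment fragments for HS and 19579327 for NS, and they held 13262 and 19640 peaks.

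HSFA1b is a member of the class A1 heat shock factors, which act early in the heat response of plants. Heat shock factors bind as trimers to heat shock elements (HSEs), arrays of alternating GAA and TTC triplets separated by 2 bases, and their best known targets are chaperone genes whose products keep heat-damaged proteins soluble or refold them. Many of these genes are hardly transcribed at moderate temperature and very strongly transcribed within minutes of heating.

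The sequences below show what lay under the summits at members on which the results turn, read from the reference genome (RefSeq, TAIR10.1) on the strand of the gene and printed 5′ to 3′, with the motif in capitals. An exact HSE in this text has 3 alternating triplets (GAA, TTC and GAA, or TTC, GAA and TTC) with 2 bases between neighbours. Where no annotated gene overlapped it, the whole window of 50 bp to each side of the summit is shown, and otherwise 27 bp centred on the motif. Among the members with an exact HSE, whole windows are shown for GolS1 (chr2:19370559-19370659, − strand), AGO1 (chr1:17892708-17892808, − strand), the DnaJ chaperone gene AT1G71000 (chr1:26770225-26770325, − strand) and the RING finger gene RING1 (chr5:3267451-3267551, + strand). The elements of Hop3 (chr4:7341320-7341346, − strand), UBC2 (chr2:773714-773740, + strand), SR45a (chr1:2260132-2260158, − strand), the DnaJ gene AT4G28480 (chr4:14073148-14073174, + strand), RANBP1 (chr5:23681776-23681802, − strand) and the long non-coding RNA gene AT4G05700 (chr4:5851103-5851129, + strand) lay downstream of the TSS.
GolS1: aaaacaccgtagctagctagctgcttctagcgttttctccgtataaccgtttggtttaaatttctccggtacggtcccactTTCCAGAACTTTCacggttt
AGO1: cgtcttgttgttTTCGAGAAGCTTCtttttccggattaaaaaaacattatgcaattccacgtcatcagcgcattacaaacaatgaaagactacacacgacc
AT1G71000: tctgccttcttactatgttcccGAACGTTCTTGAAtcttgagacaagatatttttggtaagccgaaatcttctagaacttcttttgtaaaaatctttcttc
RING1: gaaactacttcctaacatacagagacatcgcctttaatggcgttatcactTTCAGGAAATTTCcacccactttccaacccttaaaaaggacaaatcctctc
Hop3: aaaattcGAAATTTCGAGAActctctt
UBC2: ttagatcGAAGCTTCTAGAAgatcaca
SR45a: tccgactTTCCCGAAGCTTCtttctaa
AT4G28480: tcgtgttTTCTCGAACCTTCcacgaga
RANBP1: cttctggTTCTCGAAACTTCttctccc
AT4G05700: ttcagtcTTCTAGAATCTTCtccaagc

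At the genes of small heat shock proteins (HSPs) no member held an exact HSE within 50 bp of its summit, and the capitals in the next sequences mark the best match, which had 1 mismatch among the 9 fixed bases. They are from HSP17.6A (chr5:3884836-3884862, − strand), AT2G29500 (chr2:12633842-12633868, − strand), AT1G59860 (chr1:22031316-22031342, + strand) and HSP21 (chr4:13820057-13820083, − strand).
HSP17.6A: gtttctcGAACGTTAGAGAAgcgcttt
AT2G29500: cgagaagCTCGAGAAATTTCggttagt
AT1G59860: ggaacgcTTCTAGACTTTTCtggattt
HSP21: aaaacgaGTCGAGAAACTTCgtatcaa

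The G-box CACGTG and the core of the unfolded protein response (UPR) element, TGACGTG, are both read by bZIP transcription factors, and they are shown because they lay under some of the members of highest enrichment, several of them at genes of the endoplasmic reticulum (ER). The G-box is shown for SDF2 (chr2:10683998-10684098, + strand), UTR1 (chr2:801412-801512, + strand), AT4G16660 (chr4:9376569-9376669, + strand), BAG6 (chr2:18986058-18986084, + strand) and PDIL1-1 (chr1:7645625-7645651, + strand).
SDF2: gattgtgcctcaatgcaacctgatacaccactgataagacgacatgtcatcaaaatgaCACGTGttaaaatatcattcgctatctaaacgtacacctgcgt
UTR1: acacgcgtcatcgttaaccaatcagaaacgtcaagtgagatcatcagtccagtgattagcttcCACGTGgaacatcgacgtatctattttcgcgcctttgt
AT4G16660: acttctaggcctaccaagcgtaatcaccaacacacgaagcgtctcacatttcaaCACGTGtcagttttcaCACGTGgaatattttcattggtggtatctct
BAG6: gtttcttaaatCACGTGttagtaaagg
PDIL1-1: ttagagatagcCACGTGgatgtatgac

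The UPR element core is shown for LHB1B1 (chr2:14524413-14524513, + strand), SAR1B (chr1:21088595-21088695, − strand), p24beta2 (chr3:2455107-2455207, + strand), AT4G01810 (chr4:780403-780503, − strand), BIP1 (chr5:10543419-10543445, − strand), BIP2 (chr5:16810650-16810676, − strand) and PDIL2-2 (chr1:1416223-1416249, − strand). BIP1 and BIP2 are near-identical copies, and how reads were divided between them is uncertain.
LHB1B1: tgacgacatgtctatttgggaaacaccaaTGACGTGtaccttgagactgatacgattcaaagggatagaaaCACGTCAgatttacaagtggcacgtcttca
SAR1B: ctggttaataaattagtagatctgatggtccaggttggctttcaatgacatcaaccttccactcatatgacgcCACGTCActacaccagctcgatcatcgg
p24beta2: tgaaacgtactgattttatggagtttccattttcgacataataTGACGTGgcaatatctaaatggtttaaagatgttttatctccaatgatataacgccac
AT4G01810: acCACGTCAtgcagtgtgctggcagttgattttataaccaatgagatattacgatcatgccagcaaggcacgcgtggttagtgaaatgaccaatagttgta
BIP1: ataattggtcCACGTCAtctctgatga
BIP2: ataattggtcCACGTCAtctccgatga
PDIL2-2: gagagtgtgcTGACGTGtgacaatatc

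Most members were narrow sites of moderate height. Fold enrichment (FE) is the fragment pileup at the summit over the background expected there, each with 1 added. It had a median of 4.58 in the members, with quartiles of 3.92 and 5.67 and a range of 2.37 to 15.3. The pileup had a median of 22 fragments (12 to 114), the width a median of 278 bp (198 to 2226 bp) and −log10 q a median of 7.27 (1.51 to 70.9). Shared TSS peaks, the 189 HS peaks within 250 bp of a TSS that did overlap an NS peak, had a higher median FE of 6.54, and the 465 heat-only peaks away from TSSs a lower median of 3.71. All 391 members had an FE of at least 2 and 370 had at least 3. The background was worked back from FE and pileup. In 221 members (56.5%) it was at its lowest value in the list, 3.59 fragments. This was a floor common to these sites and not a control signal read at each, so FE followed the pileup alone there.

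The NS list had 2.78 times as many kept treatment fragments as the HS list. Multiplied by this factor, the members' pileups ran from 33.4 to 317 fragments with a median of 61.2, against a median of 100.1 in the shared TSS peaks. The NS control signal at the members' positions was not in the files used here, so whether a site of the same height would have been called there was not tested. The median gap from a member to the nearest of the 955 NS peaks was 38500 bp. Overlaps were excluded by the choice, and no gap was computed for other peaks or positions. Of the members, 8 lay within 500 bp of an NS interval and 17 within 1000 bp. In 16 the nearest gene was also the nearest gene of an NS peak, and the share over all genes was not computed. A member can thus lie at a gene that had an NS peak elsewhere. For example, NS peaks covered 27.4% of GolS1, 9.76% of BIP3 and 9.23% of AT5G07340.

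At the limits of the selection, HSP18.2 (FE 7.19) and AT5G57910 (FE 3.79) were just inside, with summits 250 bp downstream of the TSS. AT2G37805 and AT5G18475, both with an FE of 5.23, were just outside with summits 251 and 253 bp upstream. The members closest to an NS interval were at AT3G06760 (22 bp, FE 4.80) and AT2G23118 (121 bp, FE 5.45). The smallest overlaps among the shared TSS peaks were 24 bp at AT4G38552 (FE 3.05) and 44 bp at PAP17 (FE 3.71).

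The 15 members of highest FE mixed chaperone genes with genes of the ER, of photosynthesis and of unknown role. LHB1B1, which encodes a light-harvesting chlorophyll-binding protein of photosystem II, had the highest FE, 15.3, from a pileup of 69 fragments (95% Poisson interval 53.7 to 87.3) 144 bp upstream of its TSS. Hop3 followed with an FE of 13.7 and a pileup of 62 (47.5 to 79.5) at +18 bp, and it encodes a co-chaperone that links HSP70 with HSP90. AT1G68300, whose product belongs to the adenine nucleotide alpha hydrolase-like proteins, had the same FE and pileup. AT1G27350, a gene for the ribosome-associated ER membrane protein RAMP4, had an FE of 13.3, as had UTR1, a transporter of UDP-galactose and UDP-glucose into the ER.

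The small HSP gene AT2G29500 had an FE of 12.9, with the summit at +248 bp. BIP1, the ER-resident HSP70, had an FE of 12.5, and PDIL2-2, a protein disulphide isomerase-like protein of the ER, had 12.3. The other members of this group were at AT1G55530 (a RING finger protein gene), AT5G47420, AT5G54165, AT5G65920 (an ARM repeat protein gene), ARF2 (an auxin response factor), SHM7 (a serine hydroxymethyltransferase) and TOM3, with FEs of 9.76 to 13.1. Of the 15, only Hop3 held an exact HSE within 50 bp of its summit, while 5 held an HSE with at most 1 mismatch, 3 a G-box and 4 the UPR element core. In all, 12 of the 15 held at least 1 of these motifs, against 137 of the 391 members (35.0%). FE chose these genes, so the counts describe them and are no test.

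Small HSPs, which bind unfolding proteins without ATP and are among the most heat-inducible proteins of plants, were the list with the largest share of members. Of 15 listed small HSP genes, 12 (80.0%) had a member, against 1.23% of the 27444 protein-coding genes. AT1G07400 and AT1G54050 had shared TSS peaks instead, and 1 gene had no HS peak nearest to it. FE was 4.14 to 12.9 with a median of 6.55. AT2G29500 was the highest, followed by HSP17.6A (9.76), AT1G59860 (9.35) and HSP17.4 (8.26). The chloroplast protein gene HSP21 was the lowest. AT1G53540, HSP17.6II, HSP23.6-MITO of the mitochondrion, AT1G52560, AT5G51440, AT5G37670 and ATHSP22.0 of the ER lay between. HSP18.2, AT2G19310 and AT2G03020 are further genes of this family that had members and were outside the list, named after their values were seen.

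The small HSP peaks were broad. The paper counted broad peaks over the bodies of strongly transcribed genes as false positives. That filter was not applied here, and whether these peaks would fall under it was not tested. Their width had a median of 716 bp (234 to 1831 bp), against 278 bp over all members, and 8 of 12 were at least 500 bp wide, against 39 of 391 members (9.97%). In 6 of the 12, HS peaks covered at least 50% of the gene, as they did for 17 of the 338 members at protein-coding genes (5.03%). At HSP17.4, HSP17.6II and AT5G51440 they covered the whole gene. Only 3 of the 12 summits lay upstream of the annotated TSS, at AT1G59860, ATHSP22.0 and HSP21. None of the 12 held an exact HSE within 50 bp of the summit, although 3 held an exact HSE elsewhere in the peak and 6 held an HSE with at most 1 mismatch near the summit.

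Of 33 genes of the HSP90, HSP70, HSP100 and HSP60 families, the ATP-dependent chaperones, 12 (36.4%) had a member and 9 had a shared TSS peak. FE was 3.92 to 12.5, with a median of 7.96. The 3 BIP genes were all members, with FEs of 12.5 (BIP1), 9.59 (BIP2) and 4.78 (BIP3), and BIP1 and BIP2 each had a further heat-only peak away from the TSS. HS peaks covered 52.8% of BIP1 and 79.7% of BIP2. Hsp70b, a cytosolic HSP70, had an FE of 8.96 and the widest member, 2226 bp. All HS peaks together covered 90.5% of this gene. Hsp70-15 (8.77), AT4G16660 (8.62) and HSP70T-2 (8.50) were further HSP70-related genes. CLPB4 (7.41) and CLPB3 (6.48) encode the organellar relatives of HSP101, and CR88 (6.76) the chloroplast HSP90. HSP60 (5.82) and HSP60-3A (3.92) encode mitochondrial chaperonins. HSP101 itself and the heat-inducible HSP70 had shared TSS peaks, and HSP90.1 had a heat-only peak away from its TSS.

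Co-chaperones hand substrates to these machines or set their ATPase cycle, and 4 of 19 listed genes (21.1%) had a member while 7 had a shared TSS peak. The 4 were Hop3, the BAG-domain gene BAG6 (8.87) and the FKBP-type prolyl isomerase genes AT5G48570 (6.99) and ROF1 (6.47). All 4 held an HSE with at most 1 mismatch near the summit, and only Hop3 an exact one. BAG6 also held a G-box 62 bp upstream of its TSS.

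Of 19 genes of ER folding and the UPR, 6 (31.6%) had a member and 6 a shared TSS peak. PDIL2-2 was followed by SDF2 (6.83), PDIL2-3 (5.67), PDIL1-1 (5.45), the calnexin-like gene AT5G07340 (4.72) and P58IPK (3.79), an ER DnaJ co-chaperone. None of the 6 held an HSE near the summit, exact or with 1 mismatch. SDF2 and PDIL1-1 held a G-box and PDIL2-2 the UPR element core. CNX1, CRT1a, CRT1b and the UPR transcription factor gene BZIP28 had shared TSS peaks. The chaperone lists were drawn up with results of these data known, so their counts are a description and not independent evidence.

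Other lists had few members. None of the 21 HSF genes had a member: HSFA2 and HSFA7A had shared TSS peaks, HSF A4A and the HSFB2B gene other HS peaks, and 17 had none nearest. Each peak was credited only to the gene of its nearest TSS, of any biotype, so the 17 were not shown to be unbound. HSFB2A and HSFC1 were among them, and the paper shows HSFA1b at the HSFB2a promoter and at a region coding for an antisense RNA of HSFC1. Of 17 heat and stress regulators, GolS1 (galactinol synthase, FE 7.52) and ERF13 (FE 3.92) had members, and 4 genes, DREB2A and APX1 among them, had shared TSS peaks. LHB1B1 was the only member among 13 genes for light-harvesting and Rubisco small subunit proteins, and the other 12 had no HS peak nearest. By words in the gene description, 1 of 344 ribosomal protein genes (0.291%), 5 of 361 ubiquitin-related genes (1.39%) and 0 of 374 genes described as transcription factors had a member, beside 1.03% of all genes. The ubiquitin group comprised the conjugating enzyme genes UBC2 (7.19) and UBC11 (5.89), AT2G41160, AT5G48040 and the polyubiquitin gene UBQ11. DREB2C, a heat-inducible activator outside this description group, had an FE of 3.92. The wording also missed ERF13 and the auxin response factor gene ARF2 (11.2), so the 0 does not cover all transcription factor genes.

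**Figure D1:**
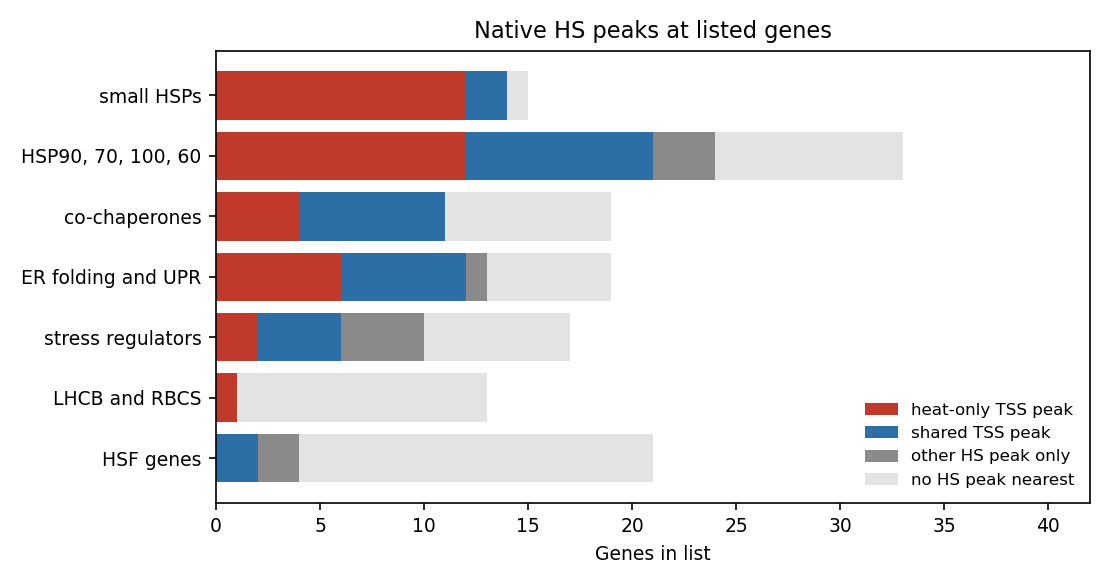
Number of genes in each list (x axis) by the kind of NP:HSFA1b HS peak credited to them, in stacked bars. Each peak was credited only to the gene of its nearest TSS, so a gene without one may have a peak nearby. Small HSP genes had heat-only TSS peaks at 12 of 15 genes, and HSF genes at 0 of 21.

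**Figure D2:**
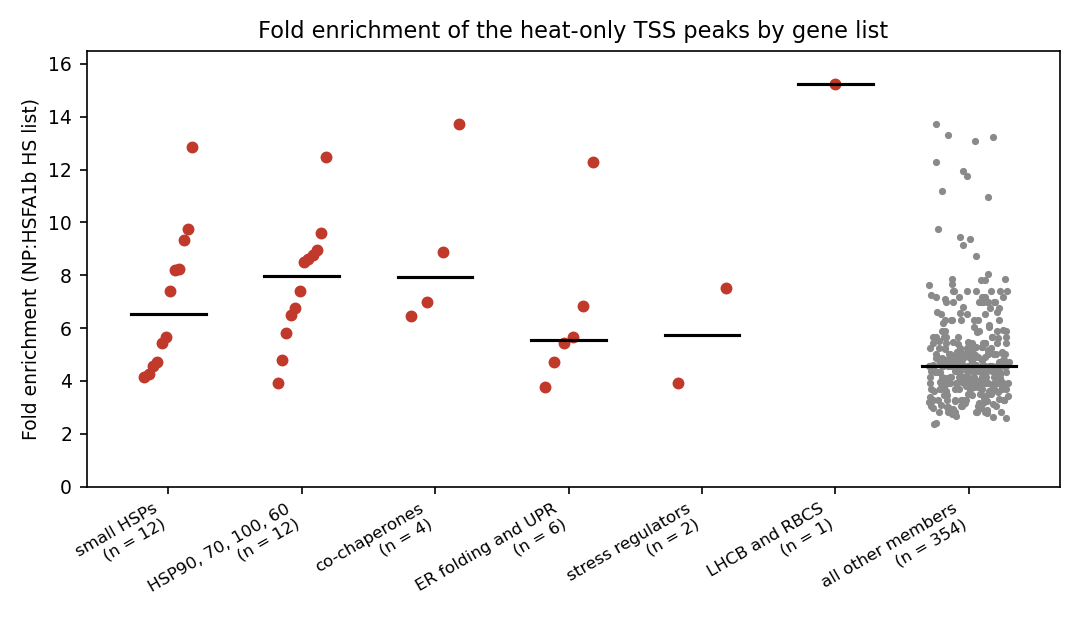
Fold enrichment in the NP:HSFA1b HS list (y axis, no unit) of each heat-only TSS peak at a listed gene (red points) and of the 354 other members (grey points), with the median of each group as a black line. The medians of the HSP90, 70, 100, 60 list (7.96) and the small HSP list (6.55) stood above the median of the other members (4.58), and all lists with more than 1 member overlapped the other members in range.

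In all, 37 members (9.46%) were nearest to 1 of the 137 listed genes, and they made up 5 of the 14 members with an FE of at least 10. Their median FE was 6.99, against 4.58 in the remaining members. An HSE with at most 1 mismatch lay near the summit of 16 of the 37. The greater part of the set was therefore at genes outside these lists, such as AT1G66080 (FE 9.37), whose product is like the animal protein Hikeshi, a carrier that takes HSP70 into the nucleus, GAPC1 (7.41), a cytosolic glyceraldehyde-3-phosphate dehydrogenase, and MED19A (6.98), a subunit of the Mediator complex; these 3 were named after their values were seen.

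Exact HSEs were found within 50 bp of the summit in 26 members (6.65%, exact 95% binomial interval 4.39 to 9.59). The share was 10.1% (6.16 to 15.3) in shared TSS peaks and 2.37% (1.19 to 4.19) in heat-only peaks away from TSSs. The members exceeded the heat-only peaks away from TSSs by 4.28 percentage points (two-sided Fisher's exact test over peaks, Benjamini-Hochberg adjusted over the 9 tests made, adjusted p = 0.00688), on 5 of 5 chromosomes. Against the shared TSS peaks the difference of −3.40 points did not pass Fisher's exact test (adjusted p = 0.262). In windows of the same length 500 bp to each side of the members' summits the share was 0.256%, and in windows centred on every annotated TSS 0.140%.

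The excess over heat-only peaks away from TSSs depended on the distance that counts as at the TSS. When only summits within 100 bp of a TSS were taken, the share was 4.10% in the members and 4.41% in the peaks away from TSSs (Fisher's exact test, adjusted p = 1). Of the 244 members with summits within 100 bp of the TSS 10 held an exact HSE, against 16 of the 147 members with summits farther away (10.9%). With an HSE of only 2 triplets (GAANNTTC or TTCNNGAA), the difference was 6.74 points with an adjusted p of 0.0557 in Fisher's exact test.

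In 19 of the 26 members the element was in an annotated exon outside the coding sequence of the nearest gene. It lay there 5 to 212 bp downstream of the annotated TSS, and in the other 7 upstream of it. The TSS is the outer end of the gene record, and whether transcription in these leaves started there was not tested. By summit position, 18 of the 26 lay at or downstream of the TSS, beside 210 of all 391 members, and in the shared TSS peaks with an exact HSE 7 lay at or downstream and 12 upstream. These positions were not tested. The element's centre was 3 to 39 bp from the summit. Hop3 had the highest FE of the 26, with the element 30 bp into the gene, and it was followed by AT4G05700 (9.16) and GolS1 (7.52). UBC2 (7.19), AT1G35660 (6.98) and CDSP32 (6.76), a chloroplast thioredoxin-like protein of drought stress, came next.

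Genes for protein quality control among the remaining 20 were the DnaJ genes AT4G28480 (5.67) and AT1G71000 (4.12). Genes of RNA biology were SR45a (4.34), a splicing regulator, and AGO1 (4.36), the main ARGONAUTE protein of microRNA-guided silencing, whose printed window also holds the UPR element core in lower case. RANBP1 (5.50) encodes a Ran-binding protein of nuclear transport, TET2 (4.05) a tetraspanin, and UCNL (4.80) a protein kinase. RING1 (3.92), AT4G09150, AT4G29770, AT3G44190, AT4G22740, AT5G18340, AT1G74240, AT4G32610, AT4G23885, AT4G29070, AT2G24680, AT5G18040 and the long non-coding RNA gene AT4G06170 had FEs of 3.15 to 6.04. Only Hop3 and GolS1 of the 26 belonged to the listed genes. The median FE was 4.90 in the 26 and 4.58 in the other members.

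**Figure D3:**
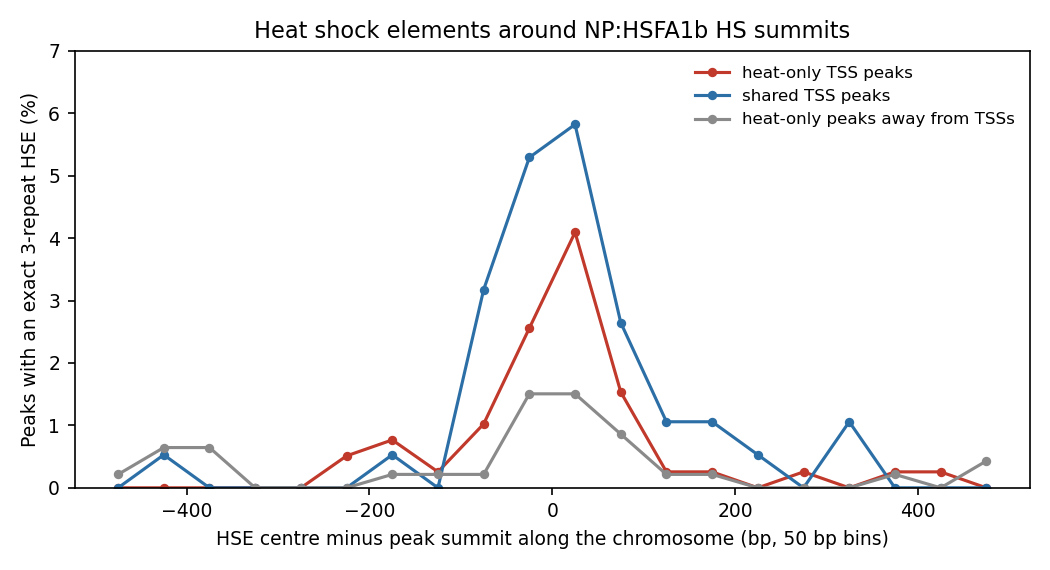
Share of peaks with an exact HSE (y axis, %) whose centre fell in each 50 bp bin of distance from the summit along the chromosome (x axis, bp), for heat-only TSS peaks (red), shared TSS peaks (blue) and heat-only peaks away from TSSs (grey). In the members the share was highest in the 2 bins beside the summit, 2.56% and 4.09%, and no bin beyond 250 bp exceeded 0.256%.

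An HSE with at most 1 mismatch was present in 92 members (23.5%), in 25.9% of shared TSS peaks, in 15.9% of heat-only peaks away from TSSs and in 3.25% of all TSS windows. With the members ordered by FE into 4 groups of 97 or 98, the share was 37.8%, 21.4%, 27.8% and 7.14% from the highest to the lowest group, so that the middle groups did not follow the order. The exact HSE was found in 7, 7, 9 and 3 members of these groups.

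The G-box was found in 34 members (8.70%, 6.10 to 11.9), against 12.2% of shared TSS peaks and 4.95% of heat-only peaks away from TSSs. Neither difference passed Fisher's exact test (adjusted p = 0.262 and 0.0859). In windows 500 bp to each side it was at 1.66% and at all TSSs 2.38%. The G-box members had their summit upstream of the TSS in 22 of 34 cases. The highest FEs among them belonged to UTR1 (13.3), AT5G47420 (12.3) and TOM3 (9.76). The printed window of AT4G16660, an HSP70-related gene, holds 2 G-boxes.

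The UPR element core, which ends in ACGTG as the G-box does but differs in the base before it, was found in 16 members (4.09%, 2.36 to 6.56). The share was 6.35% in shared TSS peaks, 1.51% in heat-only peaks away from TSSs, 0.256% 500 bp to each side and 1.08% at all TSSs, and it was not tested. These 16 members had a median FE of 6.61. They included genes of the ER and of the traffic between ER and Golgi: BIP1, BIP2, PDIL2-2, SAR1B (4.88), a GTPase that starts the COPII vesicle coat, AT4G01810 (7.41), a Sec23/Sec24 coat protein, and p24beta2 (4.36), a p24 cargo receptor. AT1G68300, AT5G02220 (a cyclin-dependent kinase inhibitor gene), RKP, DREB2C and AGO1 were others, chosen after their values were seen. LHB1B1, with the highest FE of all, held the core at 2 places, on opposite strands.

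Among further motifs, searched on both strands and not tested, AGGGG (the STRE) was in 8.18% of members, 4.23% of shared TSS peaks and 5.60% of TSS windows. GAGAGAGA was in 5.88% of members, 1.06% of shared TSS peaks, 1.29% of heat-only peaks away from TSSs and 4.36% of TSS windows. The TATA box TATAAA was in 14.8% of members and 14.3% of shared TSS peaks, below the 20.6% at all TSSs, where windows are centred on the TSS and not on a summit. TGGGCC (site II) was in 8.44%, CCAAT in 23.8% and the telo box AAACCCTA in 3.32% of members, against 7.41%, 25.9% and 3.70% of shared TSS peaks and 4.84%, 20.5% and 2.82% of TSS windows. The 2-triplet HSE, which every exact HSE contains, was in 24.8% of members, 24.9% of shared TSS peaks and 6.83% of TSS windows.

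Summits were spread to both sides of the TSS. In 181 members (46.3%) the summit lay upstream, against 99 of 189 shared TSS peaks (52.4%), a difference of −6.09 points that did not pass Fisher's exact test (adjusted p = 0.262). The median position was +12 bp in the members and −10 bp in the shared TSS peaks, and 244 members lay within 100 bp of the TSS. By the annotation, in 170 members (43.5%) the summit was in an exon outside the coding sequence, in 18 (4.60%) in a coding exon and in 22 inside a non-coding gene. Median FE differed little by position: it was 4.58 for summits upstream and for those downstream. A second TSS lay within 250 bp of the summit in 50 members (12.8%), on the opposite strand in 43 of them, so that the nearest gene was not the only candidate there. The share with more than 1 TSS was 12.7% in the shared TSS peaks.

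**Figure D4:**
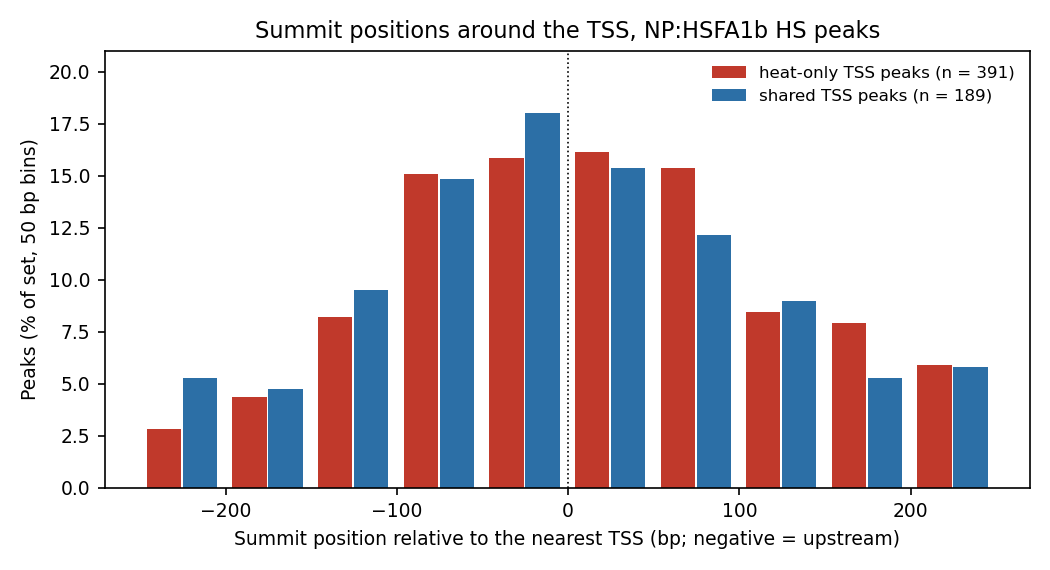
Position of the summit relative to the nearest TSS (x axis, bp, negative values upstream, 50 bp bins) as a share of each set (y axis, %), for heat-only TSS peaks (red) and shared TSS peaks (blue). The 4 bins within 100 bp of the TSS held 15.1 to 16.1% of the members each.

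The nearest gene was protein-coding in 338 members (86.4%) and non-coding or a pseudogene in 53. Of the 53, 22 were long non-coding RNA genes, 21 tRNA genes and 4 microRNA genes (MIR158a, MIR156h, MIR5998a and MIR5641). Members were at 3.36% of the 625 tRNA genes, against 1.23% of protein-coding genes, and 18 of the 21 tRNA summits lay within 50 bp of the gene's start. Their FEs were 2.83 to 5.67. tRNA genes occur as near-identical copies, so the placement of their reads is uncertain, and 7 of the 21 also had a protein-coding TSS within 250 bp. AT4G05700, with an exact HSE, was the long non-coding RNA gene of highest FE, 9.16, and the other 21 had FEs of up to 6.32. Of the 4 microRNA genes, MIR158a and MIR156h encode precursors of conserved or abundant microRNAs, and MIR158a had an FE of 4.14. The median FE was 4.80 at protein-coding genes, 4.14 at tRNA genes and 3.75 at long non-coding RNA genes.

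Members were found on each chromosome, from 2.69 per Mb on chromosome 3 to 4.14 per Mb on chromosome 4. In pericentromeric stretches lay 4 members (1.02%), against 57 of the 465 heat-only peaks away from TSSs (12.3%). The 4 were at BIP1, SHM7, AT1G35660 and DDB1A. The paper counted peaks in pericentromeric regions as false positives, and whether these 4 would fall under its filter was not tested. The stretches used here were defined by their low number of protein-coding genes. The choice by distance to a TSS therefore favours this difference, which is not a finding. In 5 members the window of 50 bp to each side of the summit had an identical copy at another member: AT1G25025, AT1G25112 and AT1G25180 shared the same letters, as did AT1G58807 and AT1G59124. These lie in duplicated stretches of chromosome 1, and their values are not independent.

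The 35S lists gave a second view of the same sites, from another fusion, another antibody and separate libraries. A 35S:HSFA1b HS summit lay within 100 bp of the summit of 107 members (27.4%, 23.0 to 32.1), beside 22.3% of all HS peaks, 32.8% of shared TSS peaks and 15.3% of heat-only peaks away from TSSs. A 35S:HSFA1b NS summit lay as near to 204 members (52.2%, 47.1 to 57.2), beside 40.0% of all HS peaks, 52.9% of shared TSS peaks and 25.2% of heat-only peaks away from TSSs. Both shares were higher in the members than in the heat-only peaks away from TSSs, on 5 of 5 chromosomes each (Fisher's exact test, adjusted p = 6.93e-05 for 35S HS and 3.67e-15 for 35S NS). No difference from the shared TSS peaks passed Fisher's exact test (−5.44 points for 35S HS, adjusted p = 0.262, and −0.74 points for 35S NS, adjusted p = 0.929).

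So 204 of the sites called only after heat in NP:HSFA1b plants had a summit nearby in unheated 35S:HSFA1b plants. The share of all annotated TSSs with a 35S summit as near was not computed. The part that nearness to a TSS plays in these matches was therefore not tested. In 71 members both 35S lists had a summit within 100 bp, in 133 only the NS list, in 36 only the HS list and in 151 neither. The 35S NS list was the deeper and longer of the 2. It was called against 4 control libraries, among them the 2 used for the 35S HS list. The part of depth or of the controls in this was not tested. The FE at the matched 35S summits was low, with a median of 2.01 for 35S HS and 2.12 for 35S NS, against medians of 1.61 and 1.54 over the whole lists. At the 71 sites matched in both, the 35S HS FE was below the 35S NS FE at 62. The 10 sites of highest native FE among the 71 were at AT1G68300, Hop3, AT1G66080, HSP70T-2, AT5G13100, CLPB4, GAPC1, AT4G00500, RKP and SDG37. At Hop3 the 35S FE was 2.01 under HS and 3.04 under NS.

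Some results moved with what counted as a match. When any overlap of the 35S interval by 1 bp was taken, 58.6% of members matched the 35S HS list and 90.8% the 35S NS list, both below the shared TSS peaks (70.4%, adjusted p = 0.0138, and 97.4%, adjusted p = 0.00899), and the excess over heat-only peaks away from TSSs in 35S HS (6.74 points, adjusted p = 0.0803) no longer passed Fisher's exact test. With 35S NS peaks of an FE of at least 2 alone, 30.2% of members and 44.4% of shared TSS peaks were matched (Fisher's exact test, adjusted p = 0.00247). The share of members with a 35S HS summit was 14.3% on chromosome 4, where the 35S HS list held only 337 peaks, and reached 47.6% on chromosome 3.

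**Figure D5:**
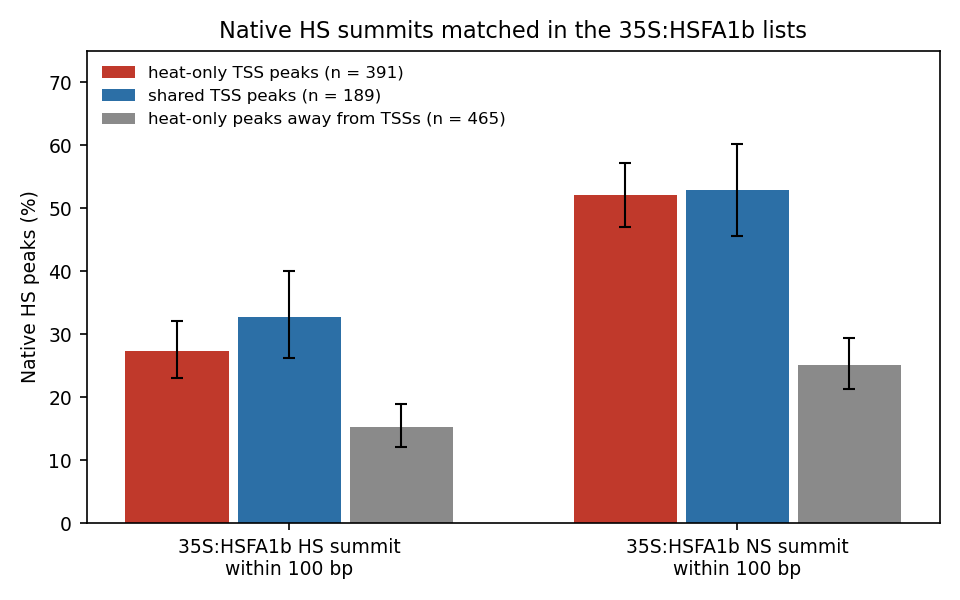
Share of native HS peaks (y axis, %) whose summit lay within 100 bp of a 35S:HSFA1b HS summit or a 35S:HSFA1b NS summit, for heat-only TSS peaks (red), shared TSS peaks (blue) and heat-only peaks away from TSSs (grey); error bars are exact 95% binomial intervals. Members stood at 27.4% and 52.2%, above the heat-only peaks away from TSSs at 15.3% and 25.2%.

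Beside the 27.4% of all members with a 35S HS summit and the 52.2% with a 35S NS summit, the gene groups gave small counts, and differences between them were not tested. None of the 12 small HSP members had a 35S HS summit within 100 bp and 4 had a 35S NS summit, although the broad intervals of 11 of the 12 were overlapped by a peak of each 35S list. Of the 12 members at HSP90, HSP70, HSP100 and HSP60 genes 4 had a 35S HS summit and 9 a 35S NS summit. All 4 co-chaperone members had a 35S NS summit and 1, Hop3, also a 35S HS summit. Of the 26 members with an exact HSE 9 had a 35S HS summit and 18 a 35S NS summit. At tRNA genes it was 9 and 15 of 21, and at long non-coding RNA genes 4 and 3 of 22. The median native FE was 4.58 in matched and in unmatched members for 35S HS, and 4.89 in matched against 4.57 in unmatched members for 35S NS. With the members ordered by native FE into 4 groups, the share with a 35S NS summit was 57.1%, 59.2%, 50.5% and 41.8% from the highest to the lowest group. The share with a 35S HS summit was 28.6%, 27.6%, 32.0% and 21.4%.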

How the data were processed

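The authors immunoprecipitated HSFA1b-eYFP and HSFA1b-RFP, aligned reads to TAIR10 with GSNAP, removed duplicates with SAMtools and called peaks with MACS2 (version 2.0.10.20131028 per the file headers) on pooled libraries at a q limit of 0.05. The deposited lists give the pileup at the summit (a coverage signal in fragments, with native libraries scaled to the larger). They also give the fold enrichment over the expected background (a ratio), and −log10 p and q. The lists were used as deposited, and no peak ran past a chromosome end of the reference. Later filters of the study were not applied. They removed pericentromeric peaks and broad peaks over the bodies of strongly transcribed genes. Mitochondrial peaks were left out.

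Members were selected with earlier results of these data known, as were the gene lists, motifs and tests. TSSs were the outer 5′ ends of 37899 RefSeq gene records (TAIR10.1), and no measured start was used. Shares were compared by two-sided Fisher's exact tests over peaks, adjusted over 9 tests by Benjamini-Hochberg (scipy 1.17.1, Python 3.11.15). Peaks were treated as independent, which neighbouring or duplicated sites are not. Poisson and exact binomial intervals cover counting error only. Overlap and motif searches were tested on simulated data and against bedtools 2.31.1.

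Genes were named where the member was among the 15 of highest fold enrichment, held an exact HSE, was nearest to a listed gene, lay at a limit of the selection, or was among the 10 of highest fold enrichment matched in both 35S lists. Other genes were named after their values were seen. Alternatives were the fold enrichment, q, width and distance limits, pericentromeres, TSS biotype, motif window and definition, and the 35S match.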

Additional observations from a re-analysis of the deposited data

How the results depend on the processing

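No paired analysis was possible because each deposited list pools its libraries, and for the same reason no library could be left out in turn. Across all alternatives the members' 35S NS share stayed above that of heat-only peaks away from TSSs (differences of 11.9 to 27.8 percentage points, adjusted p up to 1.68e-05). Their 35S HS share stayed above it by 6.74 to 12.0 points. The number of members was 244 with a TSS within 100 bp, and otherwise 348 to 492. A TSS within 100 bp turned the HSE difference from heat-only peaks away from TSSs to −0.31 points (Fisher's exact test, adjusted p = 1), and an HSE of 2 repeats left 6.74 points that no longer passed the test (Fisher's exact test, adjusted p = 0.0557). The G-box difference from these peaks passed the test at 4.42 points with a TSS within 500 bp and at 7.47 points with a motif window of 100 bp to each side. That window also gave an HSE difference from shared TSS peaks of −7.45 points (Fisher's exact test, adjusted p = 0.0208). The 35S NS difference from shared TSS peaks did not pass the test under any change to the selection (−3.65 to 1.27 points). It turned to 0.00719 points with a TSS within 100 bp, 0.20 with no NS interval within 500 bp and 1.27 with q at most 0.001, and it reached −14.3 points with 35S peaks of fold enrichment at least 2 and −6.56 with interval overlap. The 35S HS difference from shared TSS peaks was −11.8 points with interval overlap and −11.1 (Fisher's exact test, adjusted p = 0.0457) with fold enrichment of at least 3 in both native lists. Interval overlap also took the 35S HS excess over heat-only peaks away from TSSs to 6.74 points, which no longer passed the test. The causes were not tested. The depth of the HS list limits how finely members can be ranked: a pileup of 22 fragments has a 95% Poisson interval of 13.8 to 33.3.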
